A study of Danio rerio with 6 samples.

Results

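Endothelial cells line the blood and lymph vessels of the testis, and 10 of their genes were followed here through a comparison of control and nanoplastic-exposed zebrafish (Danio rerio). The 10 genes were taken by name: kdrl, flt1 and flt4 (receptors of the vascular endothelial growth factors, VEGF), tie1 and tek (the Tie receptors), cdh5, fli1a, egfl7, plvapa and plvapb. All 10 were found among the 32520 genes of the count table. Of these, 9 were matched by their own symbol, and fli1a by FLI1, the form in which the name table lists it; symbols below are printed as that table gives them (FLT4, TIE1, FLI1, EGFL7). The table holds testes of 6 adult wild-type fish, 3 controls whose water received no plastic and 3 fish whose water received polystyrene nanoplastics every 24 h over 96 h. No source used here gives the particles' size or dose. Libraries hold 1 animal each and are called by its replicate and animal number, as control 1-2, 2-2 and 3-1 and exposed 2-2, 3-1 and 3-3. What a replicate number stands for is not stated, and exposed 3-1 and 3-3 share one.

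As background, VEGF ligands made by surrounding cells bind receptor tyrosine kinases on endothelial cells and drive vessel growth and permeability. The angiopoietins act through the second receptor pair, Tek and Tie1, and steady the formed vessel. In the testis the vessels run between the seminiferous tubules beside the Leydig cells, carry hormones out and let white blood cells in.

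Column totals ran from 76205591 to 108273937 counts, and 3 counts in a library equalled between 0.0262 and 0.0422 counts per 1000000 (CPM, scaled by TMM, which corrects for differences in RNA composition). Each of the 10 genes was counted in all 6 libraries, with 254 counts at the lowest (flt1 in control 1-2), and all 10 passed the filter on low counts. Germ cell markers were present as the testis label requires: 19 germ cell genes summed to between 8028 and 8397 CPM in controls and between 3641 and 5581 CPM in exposed testes. Markers of other cell types differed between the same libraries. The 25 matched macrophage and neutrophil genes summed to between 992 and 1510 CPM in controls and between 3126 and 5762 CPM in exposed testes, and 1 of them was at 0 in all 3 controls. The 17 red blood cell genes summed to between 952 and 2413 CPM in controls and between 3447 and 4754 CPM in exposed testes. The 26 epidermal genes summed to between 2384 and 5149 CPM in controls and to 21300, 17495 and 2988 CPM in exposed 2-2, 3-1 and 3-3. The part of these other cells in the results below was not tested. In bulk tissue, fewer cells of a type and less RNA per cell cannot be told apart.

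No endothelial gene was called different between exposed and control testes by edgeR's quasi-likelihood test at an adjusted p of 0.05, where 0 of all 26108 tested genes (0%) were called. At an adjusted p of 0.1 it was 0 of the 10, beside 0.0651% of all genes. At an unadjusted p under 0.05, 3 of the 10 were higher in exposed testes (TIE1, plvapa and plvapb) and 0 were lower. Over all tested genes the share higher at that level was 9.68% and the share lower 6.79%. This count of 3 changed with a library left out. It was 1 without control 1-2, without exposed 3-1 or without exposed 3-3, and 2 without control 2-2 or without exposed 2-2. Such fits also rest on fewer libraries, and the share of all genes at that level was not taken for them. Without control 3-1 the count stayed at 3, but cdh5 took the place of plvapa (edgeR unadjusted p = 0.0296 and 0.0818). By DESeq2, an alternative count test, 0 of the 10 were called, against 5.35% of genes called higher and 1.34% called lower, and by limma voom 0 of the 10 were called (0% of all genes). Of the 10 log2 fold changes (exposed over control), 9 were above 0, beside 52.1% of all tested genes. Their median was 0.34, beside 0.039 for all tested genes, and it was 0.62 without control 3-1. The members' CPM added up to 131, 138 and 200 in control 1-2, 2-2 and 3-1, and to 210, 250 and 227 in exposed 2-2, 3-1 and 3-3. That sum leans on the genes with the most reads. With each gene weighted equally, as the mean log2 CPM relative to the gene's own mean, the libraries stood at -0.50, -0.36 and 0.10 in controls and at 0.093, 0.39 and 0.28 in exposed testes. Control 3-1 thus lay among the exposed libraries on that scale.

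**Figure D1:**
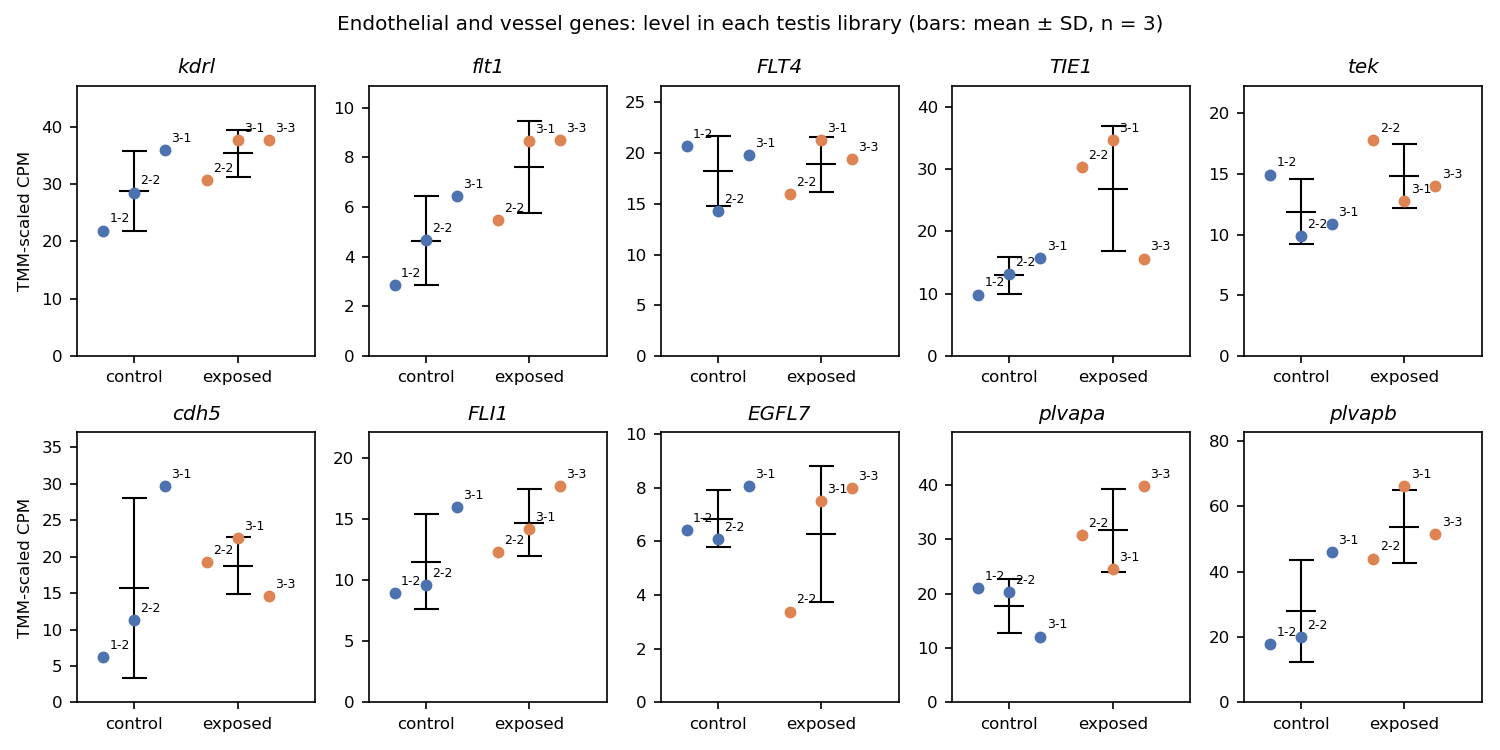
Level of each of the 10 genes in TMM-scaled CPM (y axis, from 0) in the 3 control (blue) and 3 exposed (orange) libraries, each point labelled with its replicate and animal number, with mean ± SD as bars. The groups are apart for plvapa alone, and control 3-1 is the highest control for 7 of the 10 genes.

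The VEGF receptors came first. The gene kdrl encodes the zebrafish counterpart of VEGF receptor 2, the main signalling receptor of blood vessel growth, and stood at 21.8, 28.5 and 35.8 CPM in control 1-2, 2-2 and 3-1 and at 30.6, 37.7 and 37.7 CPM in exposed 2-2, 3-1 and 3-3. Control 3-1 was above exposed 2-2, so the groups overlapped. Its log2 fold change was 0.30 ± 0.25 (SE), with a 95% interval from -0.29 to 0.88 and an edgeR adjusted p of 0.628.

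The gene flt1 encodes VEGF receptor 1, known as a decoy that binds VEGF-A and limits its action. It had 2.84, 4.66 and 6.44 CPM in the controls and 5.46, 8.64 and 8.70 CPM in the exposed libraries, in the same library order. Exposed 2-2 lay under control 3-1, and the other exposed libraries lay above every control. The log2 fold change was 0.71 ± 0.46, with an interval from -0.35 to 1.77 (edgeR adjusted p = 0.499). FLT4, VEGF receptor 3 of lymphatic and venous sprouting, stood at 20.7, 14.3 and 19.8 CPM in controls and at 15.9, 21.3 and 19.4 CPM in exposed testes. Here both groups covered nearly the same range. Its log2 fold change of 0.049 ± 0.27 had an interval from -0.58 to 0.68 (edgeR adjusted p = 0.957), and it was -0.12 without control 2-2 and -0.059 without exposed 3-1.

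Of the Tie receptors, TIE1 had the largest fold change of the 10 genes. TIE1 encodes the partner receptor that tunes angiopoietin signalling, and it had 9.87, 13.2 and 15.7 CPM in controls and 30.3, 34.7 and 15.6 CPM in exposed testes. Exposed 2-2 and 3-1 lay far above all controls, while exposed 3-3 lay within them, just under control 3-1. The log2 fold change was 1.06 ± 0.36, with an interval from 0.23 to 1.89, an unadjusted p of 0.0187 and an edgeR adjusted p of 0.221. DESeq2 gave TIE1 an adjusted p of 0.109. With a library left out its edgeR log2 fold change ran from 0.81 without exposed 3-1 to 1.33 without exposed 3-3. The epidermal sums given above were also high in exposed 2-2 and 3-1, at 21300 and 17495 CPM, and within the range of controls in exposed 3-3; their part in the TIE1 levels was not tested.

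The gene tek encodes Tie2, the receptor that binds the angiopoietins. It stood at 14.9, 9.86 and 10.9 CPM in controls and at 17.8, 12.7 and 13.97 CPM in exposed testes. Control 1-2 was above exposed 3-1 and 3-3, so the groups overlapped, and the log2 fold change of 0.32 ± 0.31 had an interval from -0.40 to 1.04 (edgeR adjusted p = 0.682). The log2 ratio of tek to TIE1 counts within a library was 0.60, -0.42 and -0.54 in controls and -0.77, -1.45 and -0.16 in exposed testes. The difference of these ratios, -0.67, was about as large as the spread in either group (SD 0.62 in controls and 0.64 in exposed testes).

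The junction gene cdh5 varied more between controls than any of the other 9. It encodes VE-cadherin, the adhesion molecule that seals endothelial cells to each other, and stood at 6.24, 11.3 and 29.6 CPM in control 1-2, 2-2 and 3-1 and at 19.2, 22.5 and 14.6 CPM in exposed 2-2, 3-1 and 3-3. The highest control had 4.75 times the level of the lowest, against 1.54 times among exposed testes. All 3 exposed libraries lay between control 2-2 and control 3-1. The log2 fold change was 0.26 ± 0.54, with an interval from -0.98 to 1.497 (edgeR adjusted p = 0.869). It moved to 1.08 without control 3-1 and to -0.12 without control 1-2.

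FLI1 encodes an ETS transcription factor of endothelial and blood-forming cells. It had 8.96, 9.62 and 16.01 CPM in controls and 12.3, 14.2 and 17.7 CPM in exposed testes, so that control 3-1 lay above the first and second exposed libraries. The log2 fold change was 0.35 ± 0.34, with an interval from -0.44 to 1.15 (edgeR adjusted p = 0.682). EGFL7 encodes a protein that endothelial cells secrete into the matrix around the vessel, and it was the only gene of the 10 with a fold change below 0. It stood at 6.42, 6.08 and 8.05 CPM in controls and at 3.38, 7.50 and 7.98 CPM in exposed testes. Exposed 2-2 had the lowest level of all 6 libraries and the other exposed libraries were within the range of the controls. Its log2 fold change was -0.12 ± 0.45, with an interval from -1.16 to 0.91 (edgeR adjusted p = 0.933), and it was 0.17 without exposed 2-2.

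The paralogs plvapa and plvapb encode the vesicle-associated protein that forms the diaphragms of fenestrae and caveolae, the pores and pits through which plasma crosses a capillary wall. For plvapa the controls had 21.0, 20.3 and 12.1 CPM and the exposed libraries 30.8, 24.5 and 39.7 CPM. It was the 1 gene of the 10 whose groups did not overlap, where 12.8% of all tested genes had every exposed library above every control. Its log2 fold change was 0.83 ± 0.31, with an interval from 0.12 to 1.54, an unadjusted p of 0.0269 and an edgeR adjusted p of 0.247. For plvapb the controls had 17.8, 19.9 and 46.0 CPM and the exposed libraries 44.0, 66.1 and 51.4 CPM. Control 3-1 lay just above exposed 2-2, and the other controls were far below all exposed libraries. Its log2 fold change was 0.95 ± 0.39, with an interval from 0.055 to 1.84, an unadjusted p of 0.0400 and an edgeR adjusted p of 0.282. With a library left out the log2 fold change of plvapb ran from 0.71 without control 1-2 to 1.49 without control 3-1. That of plvapa ran from 0.60 without control 3-1 to 0.97 without exposed 3-1.

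**Figure D2:**
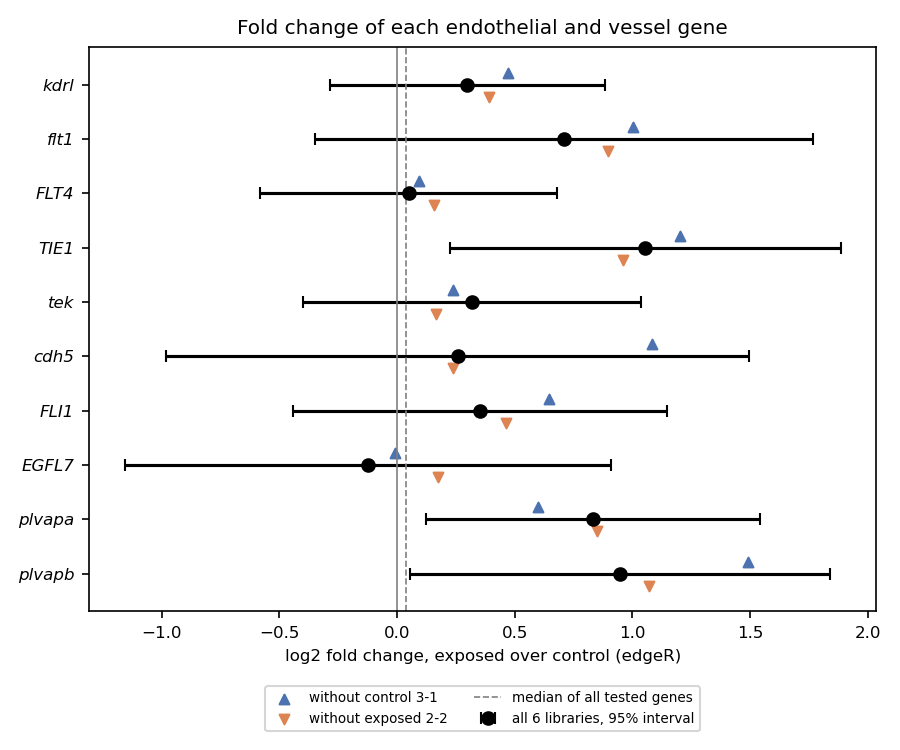
Log2 fold change of each gene, exposed over control, from edgeR (x axis) with its 95% interval (black), beside the value without control 3-1 (blue, upward triangles) and without exposed 2-2 (orange, downward triangles); the dashed line is the median of all tested genes, 0.039. The intervals of TIE1, plvapa and plvapb lie above 0 before adjustment, and cdh5 moves from 0.26 to 1.08 without control 3-1.

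The 10 genes shared a pattern in part. The genes kdrl, flt1, FLI1 and plvapb were each below their own mean in control 1-2 and 2-2 and above it in control 3-1, exposed 3-1 and exposed 3-3, as the map of centred levels shows. Other members departed from it. In control 3-1 plvapa was at its lowest of all libraries while plvapb was 2.44 times the mean of the other controls. The log2 ratio of plvapa to plvapb counts was therefore 0.24 and 0.022 in control 1-2 and 2-2, and -1.93 in control 3-1, against -0.52, -1.43 and -0.37 in exposed 2-2, 3-1 and 3-3. The ratio of cdh5 to kdrl also spread among controls, at -1.81, -1.34 and -0.27, and stood at -0.67, -0.74 and -1.37 in exposed testes. FLT4 to kdrl was -0.079 in control 1-2 and between -0.997 and -0.82 in the other 5 libraries. The groups overlapped in all 11 such ratios formed. The ratios are given as descriptions, with no test. The highest library was an exposed one for 8 of the 10 genes (exposed 3-1 for 4, exposed 3-3 for 3 and exposed 2-2 for 1) and control 3-1 for cdh5 and EGFL7.

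Control 3-1 also stood apart in adhesion molecules through which vessels catch white blood cells; the genes sele and rgs5b were chosen after their values were seen. The selectin gene sele (ENSDARG00000009123), a receptor that slows leukocytes on the vessel wall, had 123 CPM in control 3-1 against 9.58 and 8.49 CPM in the other controls, and 17.1, 12.05 and 9.80 CPM in exposed testes. The adhesion gene icam3 had 175 CPM there against 35.4 and 44.5 CPM in the other controls, and 46.2, 36.5 and 40.6 CPM in exposed testes. The vascular cell adhesion gene vcam1b had 121 CPM against 41.8 and 59.7 CPM, with 42.2, 41.0 and 30.6 CPM in exposed testes. The pericyte regulator gene rgs5b had 68.5 CPM against 3.04 and 2.85 CPM, with 3.01, 10.1 and 10.1 CPM in exposed testes. The mural list that holds rgs5b did not stand apart as a whole: 12 of its 25 genes were above the mean of the other controls in control 3-1 and 13 below, and its sum there, 1216 CPM, was the lowest of the controls. In all 4 genes control 3-1 was the highest of the 6 libraries. The rule that named icam3 and vcam1b used mean CPM and p, which include control 3-1. Of the 10 adhesion genes, 8 were above the mean of the other controls in control 3-1 and 2 below. SELE (ENSDARG00000042138), which shares its name with sele and is named outside the rule, was highest in exposed 3-3. Of the 21758 tested genes that averaged 1 CPM or more, 10% were at least 2-fold higher in control 3-1 than in the mean of the other controls, as were cdh5 and plvapb among the 10. Genes of the phagocyte oxidase, also chosen after their values were seen, were high in the same library: NCF1 had 88.3 CPM against a mean of 6.81 CPM in the other controls, and cybb 97.7 CPM against 15.9 CPM. Of the 24 genes of their list that were detected in a control, 15 were above the mean of the other controls in control 3-1 and 9 below. Of these 24 genes, 9 were at least 2-fold above that mean, beside the 10% given above for genes averaging 1 CPM or more. The median ratio of the 24 was 1.29, and the whole list summed to 1510 CPM in control 3-1 and in control 1-2 alike. In control 3-1 cd74a and cd74b entered that sum with 558 and 310 CPM, against means of 595 and 325 CPM in the other controls. The part of these cells in the levels of the vessel genes was not tested.

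**Figure D3:**
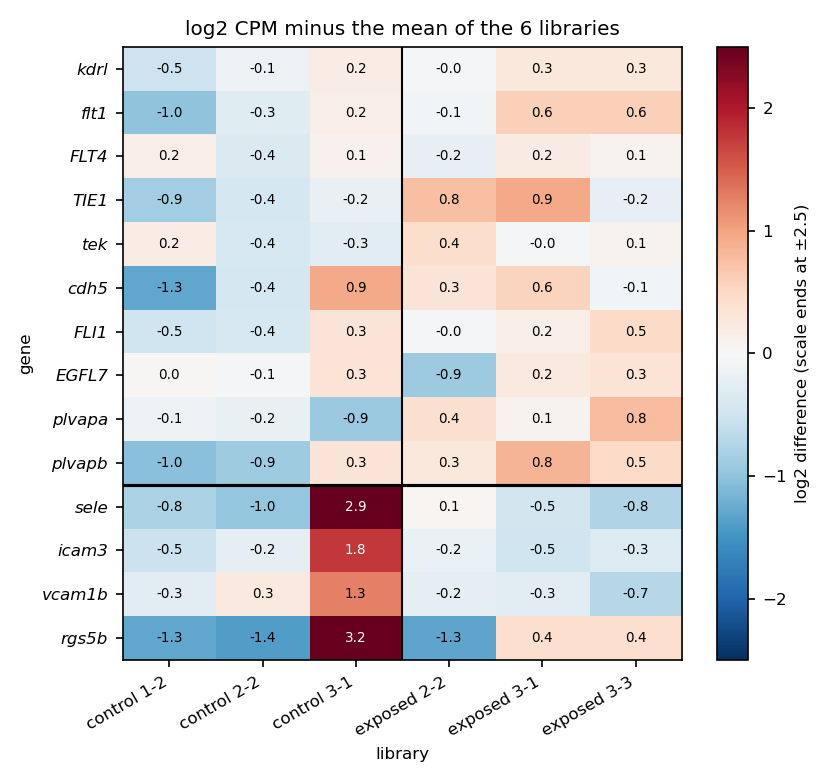
Log2 CPM of each gene minus its mean over the 6 libraries (colour and printed value, in log2 units), with the 10 vessel genes above the horizontal line and sele, icam3, vcam1b and rgs5b below it; controls are left of the vertical line. In control 3-1, sele and rgs5b stand 2.90 and 3.19 above their means, cdh5 0.95 above and plvapa 0.94 below.

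The ligands of these receptors gave no call by edgeR either, where 0 of all 26108 tested genes (0%) were called. Among 15 genes of VEGF and angiopoietin ligands and their processing factors, 11 were above 0 and 4 below. At an unadjusted p under 0.05 in edgeR, 0 were higher and 0 lower, beside 9.68% and 6.79% of all tested genes. DESeq2 called 0 higher and 0 lower, beside 5.35% and 1.34%. The median log2 fold change of the 15 was 0.29. That median ran from 0.048 without control 1-2 to 0.58 without control 3-1, and was 0.081 without exposed 3-1. VEGF-A, the chief growth factor for vessels, has a pair of genes that share the name VEGFA. ENSDARG00000034700 stood at 24.4, 35.5 and 40.0 CPM in controls and at 34.7, 45.1 and 36.5 CPM in exposed testes, and ENSDARG00000103542 at 15.6, 22.6 and 36.3 CPM in controls and at 28.3, 32.8 and 26.4 CPM in exposed testes; the latter was named outside the rule. Both were lowest in control 1-2, as kdrl and cdh5 were. Their log2 fold changes were 0.22 ± 0.26 and 0.23 ± 0.33. SVEP1, a matrix protein of lymphatic growth, had 0.29 ± 0.38. The smallest p on the higher side was that of APLN, apelin, a peptide of growing vessels, with 4.37, 4.69 and 12.8 CPM in controls and 18.7, 14.1 and 12.1 CPM in exposed testes. Control 3-1 again overlapped the exposed group, and the log2 fold change was 1.04 ± 0.48 (edgeR adjusted p = 0.334). On the lower side it was vegfba, of the VEGF-B branch, at -0.65 ± 0.50. VEGFC, the ligand of FLT4, was named outside the rule and had -0.35 ± 0.43.

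Among 18 co-receptors and signalling partners, 16 were above 0 and 2 below, with a median of 0.40 (0.16 without exposed 3-1), and 2 were higher at an unadjusted p under 0.05 (0 lower), beside 9.68% and 6.79% of all tested genes. Both of these share the name GRB10, an adaptor of receptor tyrosine kinases that also serves insulin receptors. The one with the smaller p (ENSDARG00000035308) stood at 3.33, 1.48 and 1.46 CPM in controls and at 9.55, 8.78 and 8.89 CPM in exposed testes, with every exposed library above every control. Groups were apart in that direction for 12.8% of all tested genes. The difference for this GRB10 gene was 2.12 ± 0.49 on the log2 scale, with an adjusted p of 0.157 in edgeR and of 0.00257 in DESeq2. KDR, the second VEGF receptor 2 gene of zebrafish, named outside the rule, had 0.091 ± 0.42. The most abundant partners, AMOTL2 of cell junctions and the phospholipase PLCG1, had 0.38 ± 0.25 and 0.087 ± 0.21. The vascular phosphatase gene ptprb, whose product acts on Tie2 and VE-cadherin, had -0.37 ± 0.33.

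Other genes of endothelial identity were mostly above 0 as well, with no call by edgeR, which called 0% of all tested genes. Of 35, 27 were above 0 and 8 below, with a median of 0.48. At an unadjusted p under 0.05, 4 were higher and 0 lower, beside 9.68% and 6.79% of all tested genes, and DESeq2 called 1 higher, beside 5.35%. That 1 was acvrl1, the ALK1 receptor for BMP ligands on arterial endothelium, at 16.8, 19.9 and 26.5 CPM in controls and at 44.6, 47.3 and 36.2 CPM in exposed testes. Its groups did not overlap, and 12.8% of all tested genes had every exposed library above every control. The difference for acvrl1 was 1.02 ± 0.26 on the log2 scale, with an adjusted p of 0.165 in edgeR and of 0.0262 in DESeq2. CAV1, which shapes caveolae in endothelial and other cells, stood at 113, 194 and 162 CPM in controls and at 328, 277 and 88.2 CPM in exposed testes. As with TIE1, exposed 2-2 and 3-1 were above all controls and exposed 3-3 was not. The caveolar coat gene CAVIN1 (ENSDARG00000059362) had 0.40 ± 0.38, and the ETS factor ERG, a partner of FLI1 in endothelial cells, had -0.63 ± 0.53. Without exposed 3-1 the median of the 35 genes was 0.25.

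Genes of arteries, veins, Notch signalling and flow came next. Of 26, 22 were above 0 and 4 below (median 0.31, and 0.18 without exposed 3-1), and at an unadjusted p under 0.05 there were 4 higher and 1 lower, beside 9.68% and 6.79% of all tested genes. DESeq2 called 4 higher and 1 lower, beside 5.35% and 1.34%. The flow-induced factor klf2b stood at 16.4, 13.9 and 7.17 CPM in controls and at 277, 134 and 28.2 CPM in exposed testes, with a log2 fold change of 3.55 ± 0.86 (edgeR adjusted p = 0.171, DESeq2 adjusted p = 3.67e-06). Exposed 2-2 and 3-1 were again the high ones, although exposed 3-3 also lay above the controls. Without exposed 3-3 klf2b passed in edgeR (log2 fold change 4.04, adjusted p = 0.02165), in a fit that called 396 genes in all. With each other library left out its edgeR adjusted p was 0.252 to 0.395, and those fits called 0 or 1 genes in all. Every exposed library above every control was seen in 12.8% of all tested genes. The epidermal sums were also high in exposed 2-2 and 3-1, at 21300 and 17495 CPM, against 2988 CPM in exposed 3-3. Their part in the klf2b levels was not tested. The paralog klf2a had 0.67 ± 0.29. The chemokine receptor CXCR4 (ENSDARG00000057633), of tip cells and leukocytes, had 1.096, 2.75 and 3.94 CPM in controls and 37.6, 12.7 and 10.8 CPM in exposed testes, and a log2 fold change of 2.97 ± 0.67 (edgeR adjusted p = 0.156, DESeq2 adjusted p = 0.000213). HEY1, a transcription factor downstream of Notch, had 42.2, 34.8 and 54.9 CPM in controls and 15.7, 24.9 and 23.5 CPM in exposed testes. Every exposed library lay below every control, as in 10.9% of all genes, with a difference of -1.04 ± 0.28 on the log2 scale and an adjusted p of 0.172 in edgeR and of 0.0475 in DESeq2.

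Of 11 genes of lymphatic and scavenger endothelium, 8 were above 0 and 3 below, and at an unadjusted p under 0.05 there were 1 higher and 0 lower, beside 9.68% and 6.79% of all tested genes. The median of 0.13 ran from 0.00048 without control 1-2 to 0.32 without control 3-1, and was 0.023 without control 2-2. SEMA3D, a guidance factor, had the smallest p on the higher side (log2 fold change 0.70 ± 0.26, edgeR adjusted p = 0.25). The scavenger receptor gene stab2, of the endothelium that clears hyaluronan, stood at 12.9, 13.5 and 14.5 CPM in controls and at 12.1, 6.04 and 10.2 CPM in exposed testes, with every exposed library below every control. Groups were apart in that direction for 10.9% of all tested genes. The log2 difference of stab2 was -0.53 ± 0.35, with an edgeR adjusted p of 0.508. FLT4, which shares these cells, had the value of 0.049 given above.

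Mural cells, the pericytes and smooth muscle around a vessel, had a list of 25 genes that also holds the ligand genes pdgfba and pdgfbb. Of these 19 were above 0 and 6 below, 7 were higher and 1 lower at an unadjusted p under 0.05, beside 9.68% and 6.79% of all tested genes, and DESeq2 called 3 higher, beside 5.35%. Their median was 0.36, and 0.62 when genes that share a name were left out; it was 0.21 without exposed 3-1 and 0.56 without exposed 2-2. The ligand that recruits pericytes, pdgfbb, stood at 9.91, 6.93 and 9.85 CPM in controls and at 22.9, 26.6 and 17.8 CPM in exposed testes. All exposed libraries lay above all controls, with a log2 fold change of 1.33 ± 0.30 (edgeR adjusted p = 0.156, DESeq2 adjusted p = 0.00675). Such separation was seen in 6 of the 25 listed genes, beside 12.8% of all tested genes. As a sum the list overlapped between groups. It held between 1216 and 1398 CPM in controls, and 1884, 1757 and 1015 CPM in exposed 2-2, 3-1 and 3-3. The channel subunit ABCC9 of pericytes had -0.74 ± 0.32, and acta2, smooth muscle actin, 0.090 ± 0.32. Of 11 basement membrane genes 7 were above 0 and 4 below, with 0 at an unadjusted p under 0.05 and a median of 0.15, which was 0.28 without control 2-2, 0.071 without exposed 3-1 and 0.092 without exposed 3-3.

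Among 10 adhesion molecules of vessel and leukocyte, 2 were higher and 1 lower at an unadjusted p under 0.05, beside 9.68% and 6.79% of all tested genes. The higher genes were the leukocyte partners: itgb2, the beta-2 integrin, had 36.7, 34.9 and 48.9 CPM in controls and 87.4, 97.3 and 134 CPM in the exposed group, a difference of 1.40 ± 0.25 on the log2 scale (edgeR adjusted p = 0.139, DESeq2 adjusted p = 0.000362), and selplg was the second. The lower gene was vcam1b of the vessel side, at -0.96 ± 0.39 (edgeR adjusted p = 0.272), with control 3-1 as its highest library; without that library it was -0.44. Among 23 genes of the hypoxia response, which drives VEGF-A, 17 were above 0 and 6 below, with 4 higher and 0 lower at an unadjusted p under 0.05, beside 9.68% and 6.79% of all tested genes. ADM (ENSDARG00000069027), adrenomedullin, a peptide that widens vessels, stood at 4.99, 6.32 and 5.57 CPM in controls and at 15.6, 26.4 and 18.6 CPM in exposed testes, a log2 fold change of 1.84 ± 0.33 (edgeR adjusted p = 0.139, DESeq2 adjusted p = 8.98e-05). A second gene listed as ADM (ENSDARG00000015263) did not share this pattern. Its mean over control 1-2 and 2-2 was 11.6 CPM. Control 3-1 had 52.6 CPM, and every exposed library lay below that. Over all 23 hypoxia genes the log2 fold changes ran from -1.43 to 2.06, with a median of 0.37. DESeq2 called 1 of the 23 higher and 0 lower, beside 5.35% and 1.34% of all tested genes. HIF1A, the oxygen-regulated factor itself, had 0.53 ± 0.23 (edgeR adjusted p = 0.303).

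**Figure D4:**
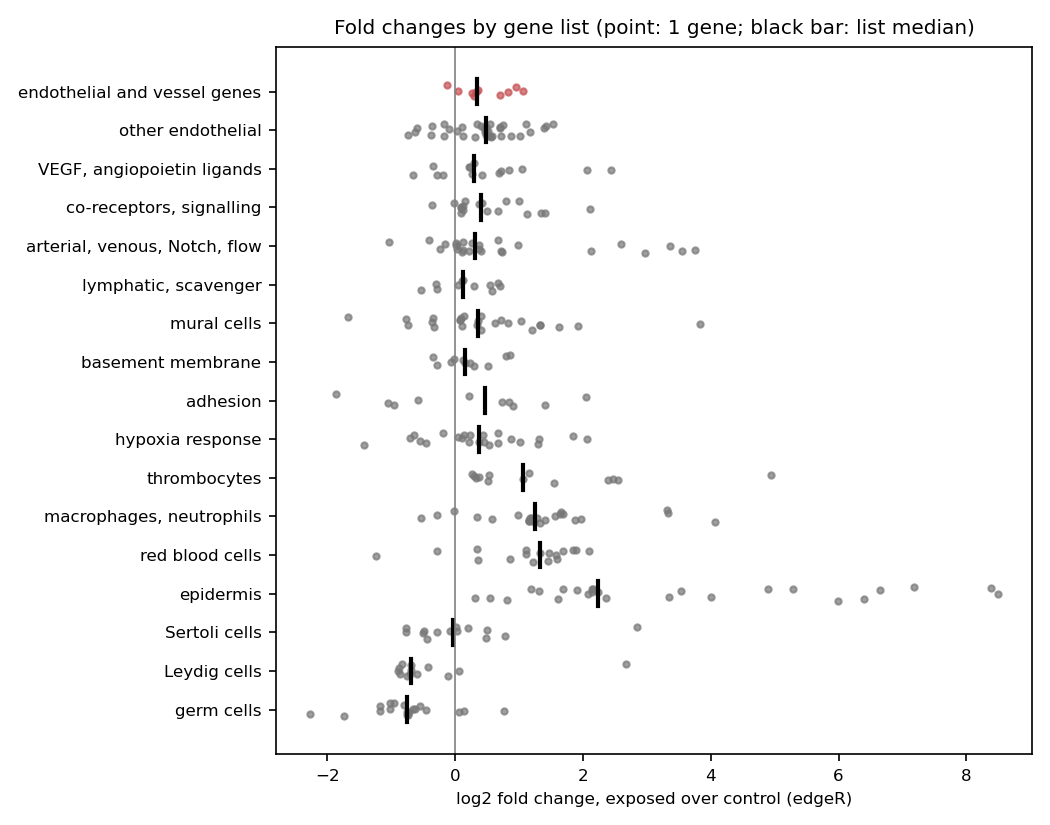
Log2 fold change, exposed over control, of each tested gene (points, x axis) in the 10 vessel genes (red) and 16 further lists (grey), with list medians as black bars. The vessel lists have medians between 0.13 and 0.48, blood cell lists between 1.06 and 1.33, the epidermis 2.24, and germ cells -0.76.

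Set beside other cells of the testis and with all 6 libraries, the median of 0.34 for the 10 genes lay between 2 sides. The germ and steroid cells were on one side and the blood cells on the other. Germ cell genes had a median of -0.76, Leydig cell genes -0.70 and Sertoli cell genes -0.033, while thrombocyte genes had 1.06, macrophage and neutrophil genes 1.26 and red blood cell genes 1.33. With a library left out the Leydig median was -0.42 at its nearest to 0 (without control 2-2), and the Sertoli median ran from -0.24 without exposed 3-1 to 0.10 without exposed 2-2 and was -0.36 without genes that share a name. The thrombocyte median was 0.43 without exposed 2-2 and 0.53 without exposed 3-3, and the red blood cell median 0.80 without exposed 2-2. Without exposed 2-2 the median of the 10 genes was also 0.43, level with the thrombocytes. These are descriptions of lists, and the differences between them were not tested.

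The genes most alike in pattern were sought as those whose centred log2 CPM over the 6 libraries lay nearest to the mean profile of the 10 genes. They were NKD1 (root mean square difference 0.063 on the log2 scale), ZNRF1 (0.074), tradd (0.095), PITPNM2 (0.10) and SVIL (0.11). Of these NKD1 had 9.89, 11.6 and 14.2 CPM in controls and 14.8, 17.2 and 16.4 CPM in exposed testes. Among the vessel genes kdrl lay nearest to their mean (0.12), followed by FLI1 (0.16), while cdh5 (0.51) and plvapa (0.53) lay farthest. Ranked by this distance among all tested genes, kdrl was at 15, FLI1 at 78, flt1 at 798 and FLT4 at 1585. The ranks of plvapb, tek, TIE1, EGFL7, cdh5 and plvapa ran from 3184 to 7752, so many genes outside the list lay nearer to the profile than these members.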

How the data were processed

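Poly(A)-enriched RNA of 6 zebrafish testes was sequenced, 3 control and 3 exposed, per the labels. The deposited table holds unnormalized counts of whole reads for each Ensembl gene; per the submitters' processing notes reads were aligned with STAR to GRCz11. Neither the counting tool nor the use of strand or mates was given in the sources used here, so how reads of paralogs and overlapping genes were assigned is unknown. Even counts made up 66.8% to 75.1% of counts between 10 and 99, so halved counts were an alternative. Columns were matched by the description in the labels, and 0 were left out. No pair of libraries was within sampling noise (lowest chi-square over its degrees of freedom 155.7).

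Names for 29201 of 32520 identifiers came from a name table. After filterByExpr and TMM scaling, counts entered edgeR 4.0.16 (robust quasi-likelihood, two-sided, Benjamini-Hochberg over 26108 genes). The SE is the log2 fold change over the square root of F, and 95% intervals use its t quantile. Lists were matched by symbol, by stem, or, added after the files were seen, by a name that 2 identifiers share. Of 330 list entries, 35 were unmatched. The members and lists were chosen with earlier results of these data known. By rule, genes named beside the 10 come from the most abundant and the smallest-p genes of each list and the 5 most alike in pattern. Not every gene that the rule allows is named. Others, among them selplg, are outside the rule or were chosen after their values were seen. DESeq2 1.42.0, limma 3.58.1, other normalizations and filters, a replicate block and each library left out were alternatives. Tests were also run on simulated counts with known changes, and the outcome is not used here. Intervals cover spread between animals, and floors counting error only.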

Additional observations from a re-analysis of the deposited data

How the results depend on the processing

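Over 17 alternatives, the 10 vessel genes gave 170 fold changes, of which 165 kept their direction and 0 passed the threshold; the 5 others changed direction. These were cdh5 (-0.085 with the replicate block, and -0.12 to 1.08 with a library left out), EGFL7 (-0.34 to 0.17) and FLT4 (-0.12 to 0.16). The median of the 10 genes ran from 0.25 to 0.62 with a library left out, the highest without control 3-1. The count of genes called over all was 0 in the reported test, 1756 by DESeq2, 70 with the bias-adjusted quasi-likelihood method, 12 with no filter on low counts, 1 each with relative log expression, upper quartile or library total scaling and with halved counts, 17 at an adjusted p under 0.1, and 0 to 396 with a library left out (396 without exposed 3-3). With the replicate number as a replicate block it was 5, 0 of the 10 genes were called, and 1 of them had an unadjusted p under 0.05, against 3 without it. Replicate number 1 belongs to control 1-2 alone, so under the block that library adds nothing to the contrast. With the block the median was 0.031 for the ligands and -0.0044 for lymphatic and scavenger genes. Deviations from the group mean had correlations of -0.0063, 0.019 and -0.034 between control and exposed libraries with the same number, and the numbers were not used to pair animals. Control 3-1 enters both pairs of number 3, and exposed 3-1 and 3-3 were not compared with each other. This check therefore cannot show that the number had no effect. The block also turned VEGFA (ENSDARG00000103542) to -0.036 and KDR to -0.21. With a library left out, the range crossed 0 for that VEGFA gene (-0.016 to 0.59), KDR (-0.17 to 0.40), SVEP1 (-0.24 to 0.56), PLCG1 (-0.052 to 0.24), acta2 (-0.28 to 0.33), icam3 (-1.42 to 0.024), sele (-2.37 to 0.50) and rgs5b (-2.22 to 1.37), the last 3 without control 3-1. For the other changes of direction the cause was not tested. With 3 animals a group the intervals were wide, from -0.98 to 1.497 for cdh5 and from -1.16 to 0.91 for EGFL7.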
